A study of Mus musculus with 12 samples.

Results

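The rows described are 4 of the 55487 rows of a gene count table of mouse nasal tissue: 1700023B13Rik, which lies opposite Cdkn1a, then Jun, Junos, which lies opposite Jun, and Pim3. They were chosen by name as genes of growth arrest and early stress, with their levels over the 3 groups in view, so those levels and the differences between groups are given as a description with no test. All 4 were among the 13181 rows that passed the filter on low counts. The groups were KDP20 at day 10, KDP20 at day 5 and a PBS vehicle labelled day 10, with 4 libraries each from male C57BL/6 mice aged 6 weeks, and all 3 groups carried the label of nasal epithelium. KDP20 is the labels' name for the agent, and the title of the series speaks of diesel particles and nasal inflammatory dysfunction. The labels give no dose or route and do not say that each library came from its own animal, so the spread may be partly technical. No day 5 vehicle was used here, so exposure and day of collection differ together between day 5 and vehicle.

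Jun is the founding subunit of AP-1, a dimeric transcription factor that JNK kinases activate under stress and that binds, among other promoters, that of Jun itself. Cdkn1a encodes p21, an inhibitor of cyclin-dependent kinases and a classic target of p53, which halts cells before DNA synthesis. Pim3 encodes a serine/threonine kinase that is active as soon as it is made, so that its amount is set largely by transcription and turnover, and PIM genes are known to be induced by cytokine signalling through STAT factors. Junos is a noncoding RNA gene read away from the Jun promoter.

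1700023B13Rik (ENSMUSG00000117050) occupies a single exon of 1046 bases at chr17:29093416-29094461 on the minus strand of mm10, where GENCODE M21 lists it as AC167363.2, a transcript still to be verified. It covers the inner of 2 start sites of Cdkn1a (ENSMUSG00000023067, chr17:29090976-29100727, plus strand). The shared exon sequence was 273 bases, 29093769 to 29094041, all of it Cdkn1a UTR, and made up 26.1% of the row's exon bases and 7.68% of those of Cdkn1a. A further 353 bases of the row lay upstream of that start site. Jun (ENSMUSG00000052684) is a single exon of 3189 bases at chr4:95049034-95052222 on the minus strand. Junos (ENSMUSG00000087366) spans chr4:95051534-95167318 on the plus strand with 4117 exon bases in 23 blocks, of which 232 bases, or 5.64%, overlap UTR of Jun. The nearest RefSeq start of Junos lay 95 bases from the Jun start. Pim3 (ENSMUSG00000035828, chr15:88862186-88865726, plus strand) has 2427 exon bases and no other annotated gene within 5000 bases. The strand setting of the counting is not known, so reads in a shared stretch cannot be assigned to a strand. Most bases of the 1700023B13Rik and Junos rows lie outside the shared stretch, but where in the rows the reads fell was not measured. Over all libraries Cyp2f2 held 1831 counts beside 598300 for Gm15883, opposite it. Jund, Gnal and Adcy3 held 3246, 2949 and 2738 beside 65140, 89624 and 83390 for Gm11175, Mppe1 and Cenpo, opposite them. In other pairs the own row held more, as Fosl1 with 1152 beside 214 for Ccdc85b, which shares 1163 exon bases with it. These pairs are examples. How far an own or an opposite row carries the reads of a gene was not tested. An own row may understate its gene or hold reads of the gene opposite it.

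**Figure D1:**
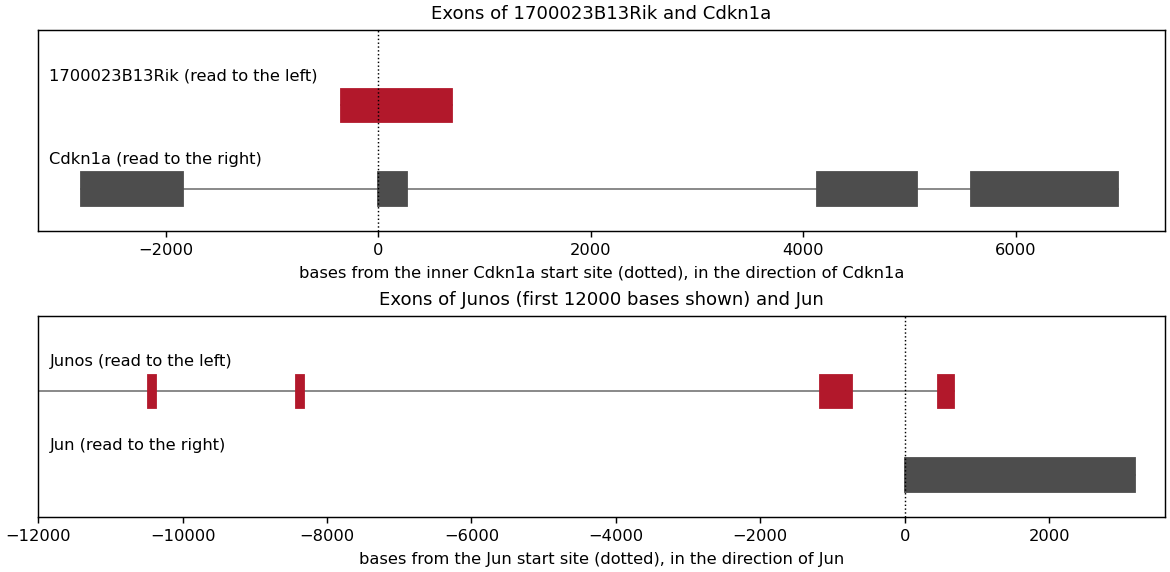
Exon maps of 1700023B13Rik with Cdkn1a and of Junos with Jun, with the x axis in bases from the inner Cdkn1a start or the Jun start (dotted lines) and boxes for exons. The single exon of 1700023B13Rik shares 273 bases with the exon at the inner Cdkn1a start, and the first Junos exon shares 232 bases with Jun.

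The promoters of Jun, Pim3 and both start sites of Cdkn1a are shown because the text turns on rows that lie at these start sites. Each is the 250 bases before the RefSeq start site in GRCm38.p6, read 5′ to 3′ along the gene, with capitals for matches on either strand to the motifs searched.
Jun, chr4:95052223-95052472, minus strand: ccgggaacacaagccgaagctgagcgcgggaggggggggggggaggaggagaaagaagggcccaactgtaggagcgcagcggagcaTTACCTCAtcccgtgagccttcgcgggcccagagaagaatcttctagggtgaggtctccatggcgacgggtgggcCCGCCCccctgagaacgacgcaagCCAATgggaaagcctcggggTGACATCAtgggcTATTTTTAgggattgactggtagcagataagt
Pim3, chr15:88861944-88862193, plus strand: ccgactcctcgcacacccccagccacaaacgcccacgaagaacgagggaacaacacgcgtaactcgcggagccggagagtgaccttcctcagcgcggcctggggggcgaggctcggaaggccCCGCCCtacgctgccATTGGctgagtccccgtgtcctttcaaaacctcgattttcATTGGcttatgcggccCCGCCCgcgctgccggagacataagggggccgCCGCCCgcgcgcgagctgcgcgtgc
Cdkn1a outer start, chr17:29090729-29090978, plus strand: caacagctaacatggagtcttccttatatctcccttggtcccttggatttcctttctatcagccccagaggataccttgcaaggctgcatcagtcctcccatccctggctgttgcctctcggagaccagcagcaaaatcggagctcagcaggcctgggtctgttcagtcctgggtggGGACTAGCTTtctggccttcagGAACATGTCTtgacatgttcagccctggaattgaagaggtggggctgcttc
Cdkn1a inner start, chr17:29093519-29093768, plus strand: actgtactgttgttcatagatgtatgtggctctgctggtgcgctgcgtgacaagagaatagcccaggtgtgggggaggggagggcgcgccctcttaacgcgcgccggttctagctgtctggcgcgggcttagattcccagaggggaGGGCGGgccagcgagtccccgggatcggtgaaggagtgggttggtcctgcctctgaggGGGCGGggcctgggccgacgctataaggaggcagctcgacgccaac
The motifs were the AP-1 site TGACTCA, the variant sites TGACATCA and TTACCTCA, the cyclic AMP response element TGACGTCA, the MEF2 core TATTTTTA, the CCAAT box, the TATA box TATAAA, the GC box GGGCGG and a p53 half-site. The Jun window held TTACCTCA at -164 and TGACATCA at -45, the letters of the AP-1-like sites known from the human JUN promoter, with a GC box at -89, a CCAAT box at -65 and a MEF2 core at -32. TGACATCA occurred in 2.93% and TTACCTCA in 0.728% of 32817 promoter windows of the same length. The MEF2 core occurred in 2.46% and a CCAAT box in 33.8% of these windows. The same TGACATCA stood at -57 of the nearest Junos start, because both promoters share the stretch between them. The Pim3 window held CCAAT boxes at -113 and -73 and GC boxes at -128, -57 and -25, and a GC box was found in 32.7% of windows. The outer Cdkn1a window held p53 half-sites beginning at -73 and -51, a motif found in 7.12% of windows. The inner Cdkn1a window held GC boxes at -104 and -46, and all of its 250 bases lay inside the 1700023B13Rik row. These are matches of letters, and no binding was measured.

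Library totals ran from 1658420 to 3227138 counts, and the level of 3 counts, taken as the detection floor, lay between 0.839 and 2.06 CPM, the counts per 1000000 of TMM-scaled library size. One row, CT010467.2, took 11.2% to 25.5% of counts in day 10 libraries, 9.69% to 12.6% in day 5 libraries and 7.25% to 10.1% in vehicle libraries, with its highest shares in day 10 replicates 2, 5 and 3. None of 14 nasal epithelium marker rows was at 0, and their sum was 537 to 688 CPM at day 10, 448 to 629 CPM at day 5 and 553 to 746 CPM in vehicle, while the 3 rows opposite such markers summed to 18400 to 22900 CPM at day 10, 23700 to 30800 CPM at day 5 and 21500 to 28100 CPM in vehicle. The 11 skeletal muscle marker rows summed to 147 to 225 CPM at day 10, 101 to 155 CPM at day 5 and 111 to 144 CPM in vehicle, so that day 10 did not overlap with vehicle. Of these rows 3 passed the filter, and most of the sum was the calcium pump gene Atp2a1, at means of 148, 76.0 and 99.2 CPM. Atp2a1 was called at day 10 against vehicle (log2 0.57, edgeR adjusted p = 0.0385), where 3.93% of all tested rows were called higher. Its row shares 763 exon bases with Rabep2, at 209 ± 348, 504 ± 592 and 55.8 ± 55.4 CPM (SD, n = 4 each). The rows opposite the muscle markers summed to 37.7 to 1110 CPM, 27.1 to 1850 CPM and 21.2 to 206 CPM in the same order of groups. The 12 immune marker rows, with S100a8 at 0, summed to 232 to 293 CPM at day 10, 220 to 242 CPM at day 5 and 196 to 232 CPM in vehicle, with 17.2 to 38.3, 19.1 to 52.7 and 25.7 to 49.5 CPM for the 3 rows opposite them. Olfactory neuron marker rows summed to 286 to 362, 277 to 412 and 257 to 375 CPM, and endothelial and fibroblast marker rows to 84.5 to 274, 227 to 455 and 169 to 390 CPM, in the same order. Against vehicle edgeR also called Gm11505, opposite Mpo (log2 -4.59), and Mppe1, opposite Gnal (-0.53), at day 10. At day 5 it called Gm48752, opposite Mybpc1 (2.19), and Gm44323, opposite Krt5 (0.94). The part of these differences in the values below was not tested, and in bulk tissue fewer cells of a type and less RNA per cell cannot be told apart.

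1700023B13Rik, the row at the inner Cdkn1a start, had a higher level in both exposed groups than in vehicle. Day 10 replicates 1, 2, 3 and 5 had 63.8, 71.4, 55.9 and 60.5 CPM. Day 5 replicates 5, 6, 7 and 8 had 73.5, 81.8, 63.5 and 62.5 CPM, and vehicle replicates 2, 4, 5 and 6 had 43.6, 36.1, 52.3 and 55.7 CPM. Each exposed library was thus above each vehicle library, although day 10 replicate 3 exceeded vehicle replicate 6 by a small margin. On unscaled totals the day 10 and vehicle ranges overlapped, at 52.0 to 64.0 and 40.0 to 58.2 unscaled CPM. The log2 difference was 0.43 (SE 0.17) for day 10 against vehicle and 0.59 (SE 0.17) for day 5 against vehicle. For day 10 against day 5 it was -0.16 (SE 0.17), with overlapping groups.

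The row of Cdkn1a itself could not be followed, since it held 2 counts in all day 10 libraries together, 5 in the day 5 libraries and 12 in the vehicle libraries. It did not pass the filter. Over all libraries the Cdkn1a row held 19 counts beside 1486 for 1700023B13Rik, or 1.26% of the pair (95% Wilson interval 0.81% to 1.96%, counting error only). Its few counts were most numerous in vehicle, the opposite of the order in 1700023B13Rik, at totals too low for a comparison. p21 messenger RNA was not measured apart from these rows.

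Jun was a row of 26 to 100 counts a library. Day 10 replicates 1, 2, 3 and 5 had 23.7, 39.8, 22.0 and 29.7 CPM. Day 5 replicates 5, 6, 7 and 8 had 22.5, 22.1, 27.6 and 38.3 CPM, and vehicle replicates 2, 4, 5 and 6 had 14.5, 28.0, 13.2 and 18.6 CPM. In both exposed groups all libraries lay above 3 of the 4 vehicle libraries, and vehicle replicate 4 lay among the exposed ones. The log2 difference was 0.60 (SE 0.27) for day 10 against vehicle, 0.54 (SE 0.26) for day 5 against vehicle and 0.06 (SE 0.26) for day 10 against day 5. Without vehicle replicate 4 the day 10 difference was 0.90.

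Junos, the noncoding partner, held more counts than Jun in every library. Day 10 replicates 1, 2, 3 and 5 had 81.8, 143, 103 and 139 CPM. Day 5 replicates 5, 6, 7 and 8 had 122, 111, 109 and 116 CPM, and vehicle replicates 2, 4, 5 and 6 had 63.5, 55.4, 87.8 and 113 CPM. The day 5 libraries were the most even, and vehicle replicate 6 reached into both exposed groups. The log2 difference was 0.55 (SE 0.20) for day 10 against vehicle, 0.53 (SE 0.19) for day 5 against vehicle and 0.02 (SE 0.19) for day 10 against day 5. The 2 highest day 10 libraries, replicates 2 and 5, were those in which CT010467.2 took the largest share of counts. With that share as a covariate, the day 10 against vehicle difference of Junos was -0.21.

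The share of Jun in the pair of Jun and Junos was similar on average in the 3 groups. Jun made up 19.9% ± 2.62 of the counts of the pair at day 10, 19.3% ± 4.18 at day 5 and 19.8% ± 9.46 in vehicle (SD, n = 4 each). The wide spread of vehicle came from replicate 4, where Jun held 33.6% of the pair (95% Wilson interval 28.4% to 39.1%). Over all libraries Jun held 627 counts and Junos 2529.

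Pim3 had the largest log2 difference of the 4 rows and the fewest counts, 4 to 22 a library. Day 10 replicates 1, 2, 3 and 5 had 7.20, 9.61, 13.8 and 6.28 CPM, from 14, 14, 22 and 11 counts. Day 5 replicates 5, 6, 7 and 8 had 7.64, 5.77, 1.87 and 7.05 CPM, from 18, 12, 4 and 14 counts. Vehicle replicates 2, 4, 5 and 6 had 2.07, 1.96, 2.03 and 4.08 CPM, from 5, 7, 4 and 9 counts. All day 10 libraries lay above all vehicle libraries, and at day 5 replicate 7 lay at the vehicle level while the other 3 lay above it. The log2 difference was 1.85 (SE 0.49) for day 10 against vehicle, 1.14 (SE 0.50) for day 5 against vehicle and 0.71 (SE 0.45) for day 10 against day 5. Vehicle replicates 2, 4 and 5 stood close to the detection floor, so the vehicle level and the size of the difference carry a large counting error.

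**Figure D2:**
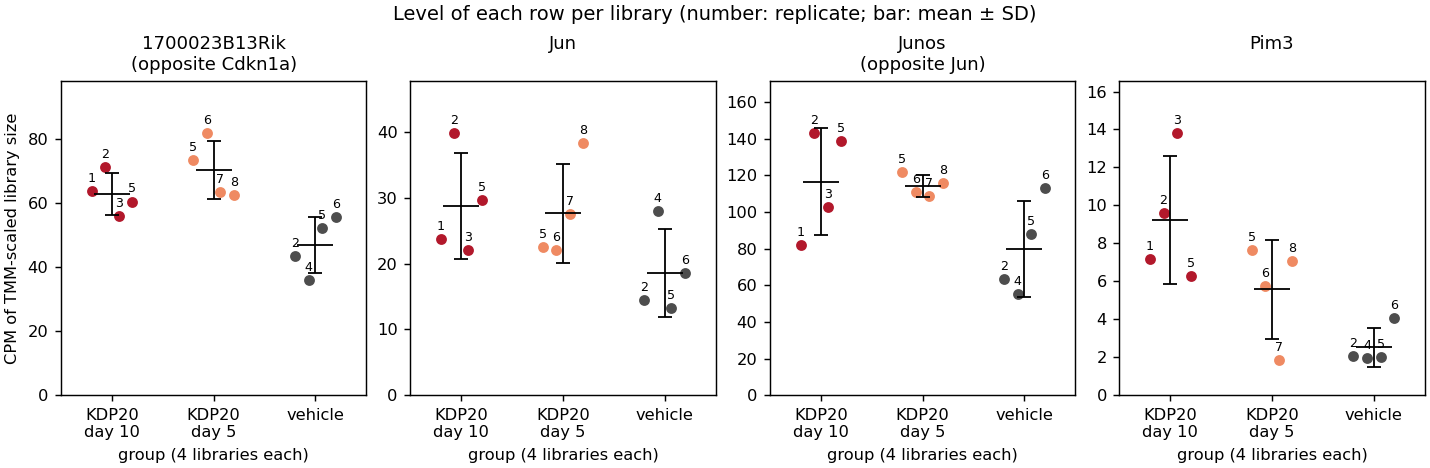
Level of each of the 4 rows in every library, on the y axis in CPM of TMM-scaled library size from 0, with groups on the x axis, points labelled by replicate number and bars for the mean ± SD of 4 libraries. Vehicle lies lowest on average in all 4 panels, without overlap with day 10 for 1700023B13Rik and Pim3, and with overlap for Jun and Junos.

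Set side by side, the group means were 62.9 ± 6.54, 70.3 ± 9.10 and 46.9 ± 8.85 CPM for 1700023B13Rik at day 10, at day 5 and in vehicle (SD, n = 4 each). Those of Jun were 28.8 ± 8.07, 27.6 ± 7.53 and 18.6 ± 6.67 CPM, and those of Junos 117 ± 29.3, 114 ± 6.06 and 80.0 ± 26.1 CPM, in the same order. Those of Pim3 were 9.23 ± 3.36, 5.59 ± 2.60 and 2.54 ± 1.03 CPM. Per kilobase of exon, 1700023B13Rik was highest in each group, with 60.1, 67.2 and 44.9 CPM per kilobase, followed by Junos with 28.3, 27.8 and 19.4. Jun had 9.03, 8.66 and 5.82 CPM per kilobase and Pim3 3.80, 2.30 and 1.04. The means of the 2 exposed groups differed by less than the SD within either group in Jun and Junos, and by about 1 SD in 1700023B13Rik and Pim3.

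Between day 10 and vehicle, 1 of the 4 rows, Pim3, was past an edgeR adjusted p of 0.05 in the higher direction, where 3.93% of all tested rows were called higher and 3.15% lower. The day 10 and vehicle libraries did not overlap, with day 10 higher, for 1700023B13Rik and Pim3, against 4.98% of tested rows. Between day 5 and vehicle none of the 4 was called, where 0.41% of rows were called higher and 0.25% lower, and 1700023B13Rik alone did not overlap, against 5.86% of rows. DESeq2 called 1700023B13Rik at day 5 and gave Pim3 no adjusted p in any comparison. Of the 13181 rows DESeq2 called 1362 at day 10 and 514 at day 5 against vehicle, the numbers beside which its calls in the lists below stand. Between day 10 and day 5 none was called and none was free of overlap, where 4.66% of rows were called higher, 5.49% lower and 5.71% did not overlap with day 10 higher. These contrasts were among the values that chose the rows, so nothing is read from the counts. The median log2 difference of all tested rows was -0.01, -0.03 and 0.01 in the 3 comparisons. An unadjusted edgeR p under 0.05 was common in both comparisons with vehicle. By the ranks of Jun and Pim3 among the 13181 rows, at least 2700 rows had one at day 10, and between 1571 and 2174 at day 5. Counts of list rows at that level, given below, stand beside this background.

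The 4 rows varied together to different degrees over the 12 libraries, which share their depth and scaling. 1700023B13Rik and Junos had a Pearson correlation of log2 CPM of 0.81 over 12 libraries, and 0.65 after the group means were taken out. Jun and Junos, neighbours on the chromosome, had 0.45 and 0.06, and Jun and Pim3 0.44 and -0.05. With the share of CT010467.2, Junos had 0.68 and 0.75, Pim3 0.65 and 0.14, Jun 0.49 and 0.28, and 1700023B13Rik 0.43 and 0.40. Junos was the one of the 4 whose correlation with that share was not smaller within groups, and the part of CT010467.2 in these levels was not tested further.

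**Figure D3:**
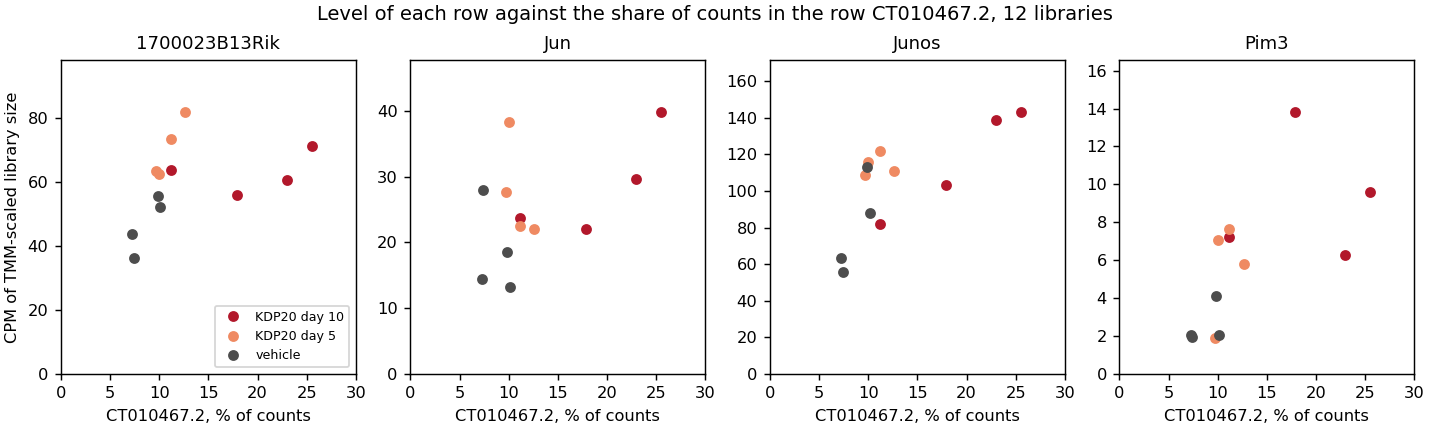
Level of each of the 4 rows on the y axis, in CPM of TMM-scaled library size, against the percent of counts in the row CT010467.2 on the x axis, with 1 point per library and colours for groups. Junos is highest in the 2 day 10 libraries with shares of 23.0% and 25.5%, while 1700023B13Rik is highest in day 5 libraries with shares of 11.2% and 12.6%.

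The rows most like each of the 4 over the 12 libraries were ranked by the same correlation. For 1700023B13Rik they were Tmem189 (r = 0.94), opposite the stress transcription factor gene Cebpb, Gm16090 (0.94), opposite the desmosome gene Dsg2, and Gm26616 (0.93), opposite Ppp1r15b, which encodes a phosphatase subunit of the integrated stress response. Each of these is itself a row opposite a coding gene. Gm and Rik rows with no opposite gene were left out of the ranking, so for Gm16090 and Gm26616 lying opposite a gene was fixed in advance. For Junos they were Gm26596 (0.94), opposite Atxn7l3b, Lyst (0.94), a gene of lysosome traffic, and Tor1aip2 (0.94), opposite Tor1aip1. For Jun they were Adnp (0.91), a chromatin factor, Rassf7 (0.89) and Clstn2 (0.88). For Pim3 they were Hdgf (0.92), a growth factor, Plin3 (0.89), a lipid droplet protein, and Dnm2 (0.89), a membrane fission enzyme, whose row lies opposite Tmed1.

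Among the other AP-1 subunits, Jund and the row opposite it were higher at day 10. The list held 15 subunit genes, of which 10 were tested by their own rows, Jun included, and 7 opposite rows, Junos included. At day 10 against vehicle, 1 of the 10 own rows and 2 of the 7 opposite rows rose by edgeR and none fell. Of all tested rows 3.93% were called higher and 3.15% lower. The list medians were 0.27 and 0.46 on the log2 scale beside -0.01 for all rows and 0.07 for all opposite rows. Jun and Junos, chosen by their values, are in these medians, so nothing is read from them. Jund, the most abundant Jun family member here, had 112, 222, 166 and 178 CPM in day 10 replicates 1, 2, 3 and 5, against 111, 107, 129 and 106 CPM in vehicle replicates 2, 4, 5 and 6. Replicate 1 of day 10 stayed at the vehicle level, and the log2 difference was 0.58 (SE 0.16, edgeR adjusted p = 0.0335). Gm11175, which shares 877 exon bases with Jund on the other strand, had 2670, 3600, 2730 and 3360 CPM at day 10 against 1900, 1690, 2440 and 2400 CPM in vehicle, with no overlap (log2 0.55, SE 0.14, edgeR adjusted p = 0.0180). Gm47863, opposite the AP-1 repressor gene Jdp2, rose by 1.10 (SE 0.32, edgeR adjusted p = 0.0375), to 18.8 ± 6.75 CPM at day 10 against 8.80 ± 1.47 CPM in vehicle (SD, n = 4 each).

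At day 5 the AP-1 list gave a different call. Batf2, which encodes an interferon-inducible AP-1 partner, rose by 0.85 (SE 0.20, edgeR adjusted p = 0.0493), to 41.2, 55.8, 33.6 and 42.3 CPM in day 5 libraries against 23.2, 24.1, 28.9 and 19.5 CPM in vehicle libraries, with no overlap. By edgeR no other own row and none of the 7 opposite rows was called, where 0.41% of all rows were higher and 0.25% lower. At an unadjusted p under 0.05 edgeR had 1 own row and 2 opposite rows, Gm11175 and Junos, the latter chosen by its values. DESeq2 called Batf2 and the opposite row Gm11175. The list, with Jun and Junos included, had medians of 0.13 and 0.39 beside -0.03 for all rows and 0.12 for all opposite rows. Jund differed by 0.03 (SE 0.16) at day 5 against vehicle. Fos, Fosb, Atf3, Batf and Batf3, the remaining subunits, were below the filter, and Batf was at 0 in every library.

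Calls on these AP-1 rows were lost in some fits that left out 1 library, for Batf2 also with a library outside the comparison. The Jund call was lost without day 10 replicate 2, 3 or 5 or vehicle replicate 2, 4 or 6, at log2 differences of 0.44 to 0.59, and the Gm11175 call without day 10 replicate 2 or 5 or vehicle replicate 2 or 4, at 0.46 to 0.51. Jund also changed sign without day 10 replicates 2, 3 and 5, at -0.02. The Gm47863 call was lost without day 10 replicate 2, 3 or 5 or any vehicle replicate, at 0.88 to 1.23. The Batf2 call was lost without day 5 replicate 5, 6 or 8, vehicle replicate 2, 4 or 6 or day 10 replicate 3 or 5, at 0.71 to 0.88.

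Of the other PIM kinases, only a row opposite Pim1 was called, at day 10 against vehicle, by edgeR. Gm26885 shares 488 exon bases with Pim1 on the other strand, Pim1 being the founding member of the family. It had 174, 168, 158 and 202 CPM in day 10 libraries against 110, 120, 143 and 135 CPM in vehicle libraries, with no overlap (log2 0.47, SE 0.14, edgeR adjusted p = 0.0459). In day 5 libraries it had 205, 181, 142 and 205 CPM, and the difference from vehicle missed the threshold of edgeR (0.54, SE 0.14, edgeR adjusted p = 0.0680), while DESeq2 called it. Pim1 itself, at 15.1 ± 5.22 CPM at day 10, 21.9 ± 6.20 CPM at day 5 and 16.8 ± 5.32 CPM in vehicle (SD, n = 4 each), differed from vehicle by -0.16 (SE 0.30) at day 10 and 0.39 (SE 0.29) at day 5, neither called. Pim2 held 0 to 2 counts a library. The Gm26885 call was lost in 9 of 12 fits that left out 1 library, at 0.40 to 0.52, and held without day 10 replicate 1, day 5 replicate 7 or vehicle replicate 5.

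**Figure D4:**
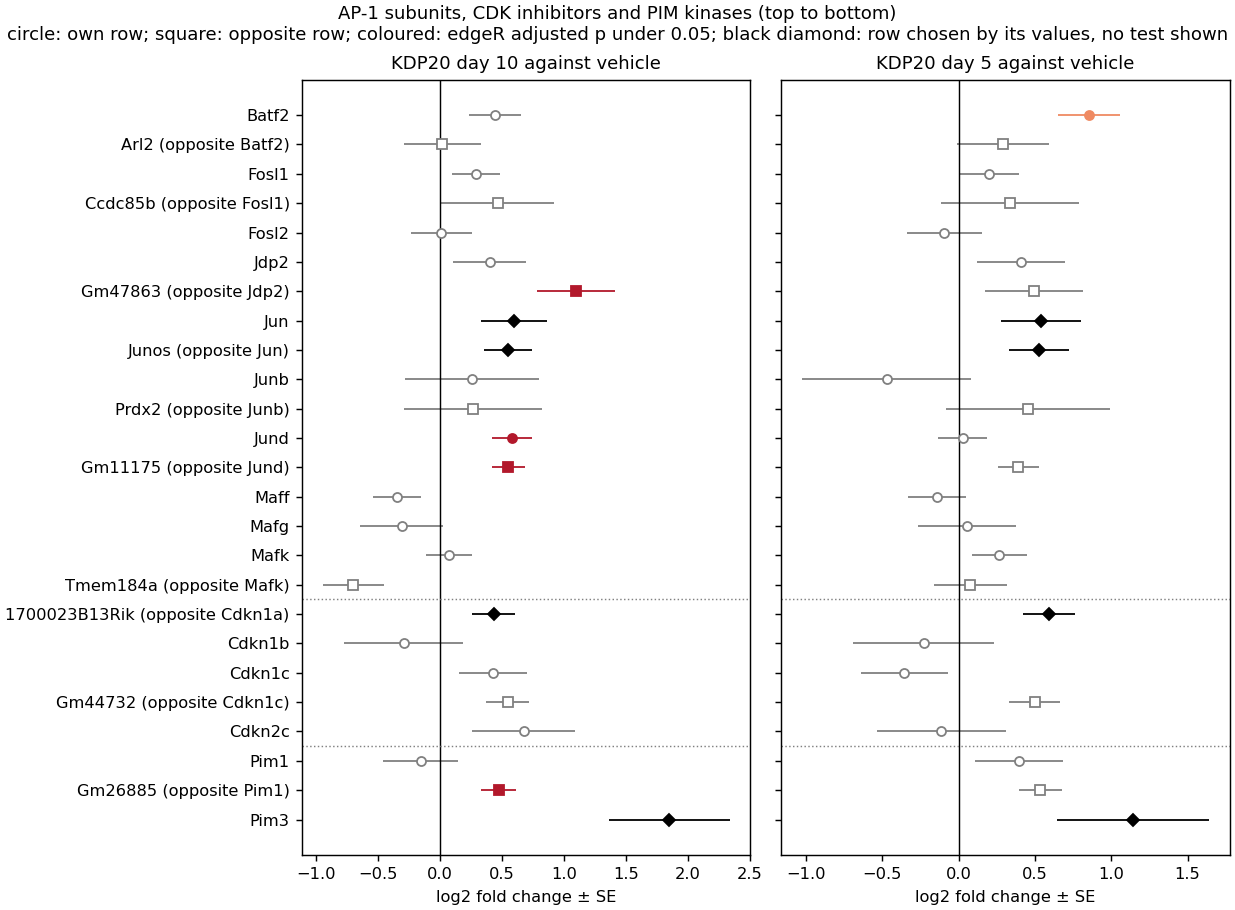
Log2 fold change ± SE (x axis) of every tested row of the AP-1, CDK inhibitor and PIM lists, for day 10 against vehicle (left) and day 5 against vehicle (right), with circles for own rows, squares for opposite rows and black diamonds for the 4 rows chosen by their values. Coloured symbols mark rows past an edgeR adjusted p of 0.05, which are Jund, Gm11175, Gm47863 and Gm26885 at day 10 and Batf2 at day 5.

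No CDK inhibitor row was called by edgeR in either comparison with vehicle. The list held 7 genes, of which Cdkn1b, Cdkn1c and Cdkn2c were tested, with none of them at an unadjusted p under 0.05 in either comparison and none called by DESeq2. Both tested opposite rows, 1700023B13Rik, itself chosen by its values, and Gm44732, had an unadjusted p under 0.05 in both comparisons. At least 2700 of the 13181 tested rows reached that level at day 10 and at least 1571 at day 5. Gm44732, opposite the p57 gene Cdkn1c, differed by 0.54 (SE 0.17, edgeR adjusted p = 0.0528) at day 10 and 0.50 (SE 0.17, edgeR adjusted p = 0.142) at day 5, beside 0.43 and 0.59 for 1700023B13Rik, and DESeq2 called it at day 10. Cdkn2a was at 0 in every library. Cdkn1c by its own row differed by 0.43 (SE 0.28) at day 10 and -0.35 (SE 0.28) at day 5, neither called.

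No p53 target was called by its own row in edgeR. Of 26 genes 11 were tested by their own rows, with 0 rows at day 10 and 1 at day 5 against vehicle at an unadjusted p under 0.05, and that row, Sesn1, was called by DESeq2. The medians were -0.24 and -0.12, with 9 of 11 and 6 of 11 rows below 0. Mdm2, which encodes the p53 ubiquitin ligase, differed by -0.56 (SE 0.39) at day 10 and 0.15 at day 5, and Ccng1 by -0.54 (SE 0.43) and -0.12, none of these called. Of the 6 opposite rows, Gm26787, opposite the p53-induced gene Ei24, fell by 0.79 (SE 0.21, edgeR adjusted p = 0.0275) at day 10. It had 233, 80.3, 117 and 91.4 CPM in day 10 replicates 1, 2, 3 and 5 against 211, 207, 271 and 218 CPM in vehicle, so that replicate 1 stayed at the vehicle level, and it lay at 0.04 without replicates 2, 3 and 5. The call was also lost without any 1 vehicle replicate or day 10 replicate 2, 3 or 5, at -0.83 to -0.61. DESeq2 called Gm26787 at day 10. E230016M11Rik, opposite the growth arrest gene Gadd45a, differed by 0.76 (SE 0.19, edgeR adjusted p = 0.0587) at day 5, where DESeq2 called it, and 0.25 (SE 0.19) at day 10. Trp53 itself held 5 to 25 counts a library and differed by 0.34 (SE 0.40) and 0.24 (SE 0.40), and edgeR called none of the 2 tested own rows of the p53 family, with 1 at an unadjusted p under 0.05 at day 10, Trp73, which DESeq2 called.

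The immediate early genes, which share rapid induction with Jun, gave no call at day 10 or day 5 against vehicle by edgeR in 10 tested own rows of 23 genes in the table or in 2 opposite rows. The medians of the own rows were 0.11 and -0.27, with 1 row in each comparison at an unadjusted p under 0.05, and DESeq2 called none of them and 1 opposite row, Gm50394, at day 10. Dusp1, a phosphatase that switches off JNK and p38, differed by 0.08 (SE 0.17) at day 10 and 0.12 at day 5. Of the genes of the JNK and p38 pathway, 13 of 22 were tested and edgeR called none in either comparison with vehicle, by own or by 6 opposite rows, with 2 and 1 own rows at an unadjusted p under 0.05. Mapk8ip3, a JNK scaffold, was nearest to a call, at 0.39 (SE 0.13, edgeR adjusted p = 0.0629) at day 10, where DESeq2 called it. The Mapk8ip3 row shares 1309 exon bases with Mrps34 and 577 with Nme3 on the other strand. It held 10697 counts over all libraries beside 128 and 19 for those genes, and whose reads it carries was not tested. DESeq2 also called the opposite row Gm50315 at both days.

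One vehicle library stood apart in the early genes, which bears on the reading of vehicle. Vehicle replicate 6 held 23 Fos counts against 0 to 3 in the other 11 libraries, 62 Egr1 counts against 0 to 13 and 51 Junb counts against 4 to 22. The same library had the highest vehicle level of 1700023B13Rik, Junos and Pim3, though not of Jun. Without it the day 10 against vehicle differences were 0.53 for 1700023B13Rik, 0.59 for Jun, 0.77 for Junos and 2.15 for Pim3. These 3 genes were singled out after their values were seen.

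In the lists around the 4 rows, Gpr137, opposite Bad, whose product PIM kinases phosphorylate, rose by 0.60 (SE 0.15, edgeR adjusted p = 0.0192) at day 10, and edgeR called no own row of 10 tested genes of PIM and cytokine signalling at day 10 or day 5, with 3 and 2 at an unadjusted p under 0.05. DESeq2 called 2 of them at day 10, Socs2 and Akt1, and none at day 5. Socs3, a feedback inhibitor of the same JAK and STAT route, differed by 1.11 (SE 0.42, edgeR adjusted p = 0.107) at day 10. Among cyclins and CDKs, Ccne2, the cyclin of entry into DNA synthesis that p21 opposes, fell by 0.86 (SE 0.16, edgeR adjusted p = 0.00608) at day 10, to 111, 56.3, 74.7 and 74.2 CPM against 139, 134, 169 and 136 CPM in vehicle. It was the 1 of 13 own rows called by edgeR at day 10, beside 3.15% lower of all tested rows, and the call held in each of 12 fits that left out 1 library. The Ccne2 row shares 609 exon bases with Ints8 on the other strand. Over all libraries it held 3165 counts beside 125 for Ints8, and whose reads it carries was not tested. Aktip, opposite Rbl2, fell by 0.75 (SE 0.16, edgeR adjusted p = 0.0108) at day 10, the 1 edgeR call among 12 opposite rows, and LTO1, opposite Ccnd1, rose by 0.67 (SE 0.16, edgeR adjusted p = 0.0444) at day 5. DESeq2 called 4 of the 12 opposite rows at day 10, Exosc9, Tspan31, Lpar6 and Aktip, and at day 5 the own row of Cdk4 and the opposite rows LTO1, Gm43126 and Exosc9. Over all 13181 rows it called 1362 at day 10 and 514 at day 5. Among 11 tested heat shock genes, Dnaja1 fell by 0.63 (SE 0.15, edgeR adjusted p = 0.0152) and Hsf1 rose by 0.73 (SE 0.22, edgeR adjusted p = 0.0467) at day 10. At day 5 edgeR called none, with 2 at an unadjusted p under 0.05, and DESeq2 called 1, Hsp90aa1. The Dnaja1 row, with 4206 counts over all libraries, shares 608 exon bases with Smu1 on the other strand, whose row held 368. The own rows of the 8 tested genes of the integrated stress response and of the 1 tested GADD45 gene gave no call against vehicle at either day by edgeR or DESeq2, with 0 rows at day 10 and 1 row at day 5 at an unadjusted p under 0.05. Of the rows opposite them edgeR called none, and DESeq2 called Il4i1 and Nup62, both opposite Atf5, at day 10 and E230016M11Rik at day 5. Some of these calls were lost when 1 library was left out, in some cases a library outside the comparison. That of Gpr137 was lost without vehicle replicate 4 or day 10 replicate 2, 3 or 5, at 0.53 to 0.63, and that of Aktip without day 10 replicate 2 or 5, at -0.67 and -0.68. That of Dnaja1 was lost without vehicle replicate 5 or 6 or day 10 replicate 2 or 5, at -0.63 to -0.52, and that of Hsf1 without any 1 library other than day 10 replicates 1 and 3, at 0.59 to 0.83. That of LTO1 was lost without vehicle replicate 2, 4 or 6, day 5 replicate 5, 6 or 8 or day 10 replicate 3, at 0.58 to 0.69.

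Day 10 replicates 2, 3 and 5 were the libraries richest in CT010467.2. With that share as a covariate edgeR called 0 rows of the whole table between day 10 and vehicle, with 500 rows at an unadjusted p under 0.05. The share was higher in every day 10 library than in every vehicle library, so covariate and group cannot be fully separated. Without the 3 libraries a lone day 10 library remains, so only log2 differences are given. Neither fit can decide whether the calls depend on these libraries. Under the covariate, the log2 differences of the 4 rows at day 10 were 0.21 for 1700023B13Rik, 0.26 for Jun, -0.21 for Junos and 1.65 for Pim3. Without the 3 libraries, when a lone day 10 library is assumed to vary like the others, they were 0.46, 0.32, 0.05 and 1.51.

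**Figure D5:**
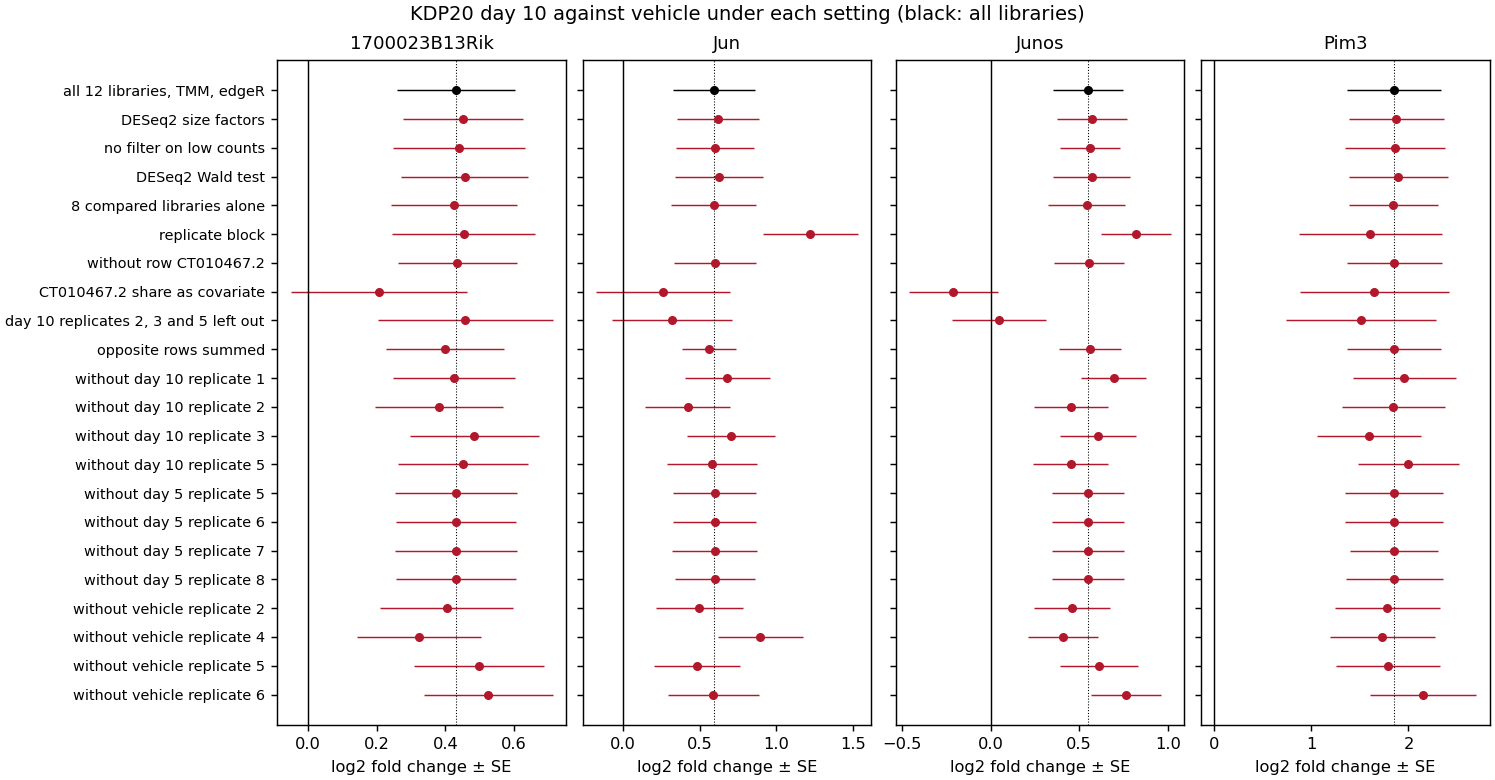
Log2 fold change ± SE (x axis) of the 4 rows for day 10 against vehicle under each setting of the analysis (y axis), with the fit of all 12 libraries in black and as a dotted line. 1700023B13Rik, Jun and Pim3 stay above 0 under all settings shown, and Junos falls to -0.21 with the share of CT010467.2 as a covariate.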

How the data were processed

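Gene counts of 12 libraries of mouse nasal tissue were used, 4 per group. Per the submitters' processing notes, FastQC, Trim Galore, STAR and HTSeq were used with the mm10 build, and the values the authors deposited are counts per gene. The sources used here give no versions, annotation release, counting mode or strand setting. Per the labels' protocols, a SMARTER mRNA-Seq kit was used on total RNA.

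The 55487 rows, of which 21025 were 0 in every library, were placed in GENCODE M21, where 55141 identifiers were found, with Python 3.11.15 and bedtools 2.31.1. An opposite row is one with at least 50 exon bases in common with exons of a gene read the other way, and 8378 rows were of this kind. The quasi-likelihood F test of edgeR 4.0.16 (R 4.3.3) was applied to 13181 rows kept by filterByExpr, holding 98.3% of counts, with TMM scaling, a group term alone and Benjamini-Hochberg adjustment over these rows. SEs were taken as the log2 difference over the root of F. Levels are CPM, and correlations used log2 CPM with a prior count of 2. The fit was tested on simulated data. Promoter windows come from RefSeq, build GRCm38.p6, where Jun, Junos, Pim3 and Cdkn1a were matched.

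The 4 rows and the gene lists were chosen with earlier results of these data known. Named genes are the 4 rows, Cdkn1a, up to 4 called rows with the smallest p of each list and comparison, and the 3 rows most like each of the 4. The ranking by likeness left out the row itself, rows that overlap it, and Gm and Rik rows with no opposite gene. Exceptions were rows uncalled by edgeR given as values, rows that DESeq2 alone called and the early genes of 1 vehicle library, chosen after their values were seen. Marker lists are given as summed levels. Alternatives were DESeq2 1.42.0 scaling and its Wald test, no filter, the 8 compared libraries alone, a replicate block, CT010467.2 removed or as a covariate, opposite rows summed, and leaving out each library or 3 day 10 libraries.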

Additional observations from a re-analysis of the deposited data

Results flagged for a closer look

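Pim3 in vehicle replicate 6, at 4.08 CPM, stood apart from the other 3 vehicle libraries, which lay between 1.96 and 2.07 CPM. It was the 1 group singled out among 12 examined for the 4 rows, where chance alone singles out about 1 in 20 groups.

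The difference from vehicle was not the same at day 10 and day 5 for 22 rows of the stress lists, by the edgeR adjusted p of day 10 against day 5, which tests that difference itself. Of all 13181 tested rows, 4.66% were called higher and 5.49% lower in that comparison, and whether the stress lists exceed that share was not tested. In AP-1 the log2 difference between the days was 0.56 for Jund and -0.78 for Tmem184a, opposite Mafk. It was 0.79 for the immediate early gene Arc and -0.41 for Map3k12 of the JNK pathway, whose row shares 1573 exon bases with Pcbp2 on the other strand. It was -0.98 for Gm26787, opposite Ei24, and 0.62 for Gpr137, opposite Bad. For cyclin rows it was -1.75 for Exosc9, opposite Ccna2, -0.80 for LTO1, opposite Ccnd1, -0.79 for Gm43126, opposite Ccnd2, and -0.78 for Ccne2. It was also -0.62 for Ccna2, -0.61 for Cdk4, -0.64 for Rb1 and -0.68 for Aktip, opposite Rbl2. The rows of Ccne2, Cdk4 and Rb1 in turn lie opposite Ints8, Tspan31 and Lpar6. For heat shock rows the log2 difference was -0.62 for Dnaja1, opposite Smu1, and -0.75 for Gm20481, opposite Hspa1a. For both Hsp90aa1 and Hsf1 it was 0.70. For the integrated stress response it was -0.51 for Gm43292, opposite Eif2ak3, -0.51 for Ankrd61, opposite Eif2ak1, and 0.52 for Il4i1 and 0.68 for Nup62, both opposite Atf5. None of the 4 rows chosen was among them. Day 10 replicates 2, 3 and 5, in which CT010467.2 took 17.9% to 25.5% of counts, stood apart in that share. A fit without them leaves a lone day 10 library, so it cannot decide whether these calls depend on them.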

How the results depend on the processing

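The log2 differences of 1700023B13Rik and Pim3 kept their sign in all 3 comparisons under every alternative that gave a value, and so did that of Jun against vehicle at both days. Pim3 had no value for day 5 against vehicle in the fit of the 8 compared libraries, where it did not pass the filter. Calls for day 10 against vehicle, 933 rows, became 1362 with DESeq2, 423 with the 8 libraries alone, 1701 with a replicate block and 0 with CT010467.2 as a covariate. They ran from 95 without day 10 replicate 5 to 2684 without day 10 replicate 1. Without day 10 replicates 2, 3 and 5 a lone day 10 library remains, so no count of calls is given for comparisons with day 10. The 87 calls for day 5 against vehicle became 278 with no filter, 514 with DESeq2, 656 with the 8 libraries alone, 33 with the block, 370 with the covariate and 589 without those 3 libraries, and ran from 5 to 569 with 1 library left out. The 1337 calls for day 10 against day 5 became 2 with the covariate, and ran from 623 to 2689 with 1 library left out.

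For day 10 against vehicle the covariate gave 0.21 for 1700023B13Rik and -0.21 for Junos, the block gave 1.22 for Jun, and leaving out the 3 libraries gave 0.048 for Junos. For day 10 against day 5 the covariate gave -0.34 for 1700023B13Rik and -0.60 for Junos, the block 0.65 for Jun and 0.51 for Junos, and leaving out the 3 libraries -0.48 for Junos. With 1 library left out, differences at day 10 against vehicle ran from 0.32 to 0.53 for 1700023B13Rik, 0.42 to 0.90 for Jun, 0.41 to 0.77 for Junos and 1.59 to 2.15 for Pim3. At day 5 they ran from 0.49 to 0.69, 0.35 to 0.84, 0.39 to 0.74 and 0.95 to 1.45, and between the days from -0.22 to -0.08, -0.12 to 0.25, -0.08 to 0.16 and 0.42 to 0.90, in the same order. Pim3 passed the threshold at day 10 in 6 of 12 such fits, not without day 10 replicate 2, 3 or 5 or vehicle replicate 2, 4 or 5. Jund changed sign at day 10 against vehicle, to -0.119 with the covariate and -0.015 without the 3 libraries, as did Gm26787, to 0.077 and 0.042, and Jund at day 10 against day 5, to -0.007 and -0.045. The cause of these changes was not tested.

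Libraries that share a number had correlations of deviations from -0.09 to 0.12, so no pairing by number was seen. So few pairs cannot exclude one, and the replicate block is given only here. Counts of 4 to 22 for Pim3 limit its precision, and the strand of the counted reads is not settled.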

Other observations

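The high early gene counts of vehicle replicate 6 were seen in few of the genes listed. Among 37 rows of AP-1 and immediate early genes with counts, this library was highest in 7, the most of the 12 libraries. The 17 rows of these lists below the filter summed to 18.3 to 28.2 CPM at day 10 and 22.6 to 28.2 CPM at day 5, against 67.5 CPM in vehicle replicate 6 and 15.2 to 33.6 CPM in the other vehicle libraries. Ier2 had 24 counts in this library against 2 to 15 elsewhere, and Btg2, an antiproliferative gene, had 8 against 0 to 4. Jun, with 41 counts, was not raised there, and its highest vehicle level was in replicate 4, where Fos had 0 counts and Egr1 had 9. These genes were picked after their values were seen, and no test was made.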
